A study of Homo sapiens with 17 samples.

Results

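The APOBEC3 genes encode a family of cytidine deaminases, enzymes that turn cytosine into uracil in single-stranded DNA. They act against retroviruses and mobile elements, several of them respond to interferon, and their action on cellular DNA leaves a mutation pattern that is frequent in head and neck cancers. APOBEC3A, APOBEC3C and APOBEC3H have 1 catalytic-type zinc domain, while APOBEC3B, APOBEC3D, APOBEC3F and APOBEC3G have a pair of them. The members were taken by symbol, and all 7 were found among 34496 gene rows. In the RefSeq annotation of GRCh38.p14 they lie side by side on chromosome 22, from 38957609 to 39104067, a stretch of 146.5 kb. Their order is APOBEC3A, APOBEC3B, APOBEC3C, APOBEC3D, APOBEC3F, APOBEC3G and APOBEC3H, and the gaps between neighbours run from 0.8 kb, between APOBEC3C and APOBEC3D, to 21.5 kb, between APOBEC3B and APOBEC3C.

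The 10 RNA-seq libraries came from 3 cell lines of human head and neck cancers. Cal27, from a tongue squamous cell carcinoma, was cultured with DMSO (2 libraries), and a Cal27 line labelled as a knockout of NSD1, which methylates histone H3 at lysine 36, was cultured with DMSO (2 libraries) or with EPZ-6438 (2 libraries). EPZ-6438, or tazemetostat, inhibits EZH2, the enzyme that methylates histone H3 at lysine 27; DMSO is its solvent. Cal27, the labelled knockout, SKN3 and BICR78 were also sequenced untreated, with 1 library for each. The labels do not give the guide, the number of knockout clones, the dose or the duration, and no parental Cal27 with EPZ-6438 was analysed here. Nothing states that replicates came from separate cultures, so a p-value here reflects only how far these libraries spread, which may be technical.

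Each DMSO or EPZ-6438 library had between 11.75M and 15.51M counts (M, 1000000), and each untreated library between 17.59M and 21.74M. NSD1 itself stood at 110 and 111 CPM (counts per 1000000 counts of the library) in Cal27 with DMSO, 165 and 164 CPM in the solvent-treated labelled knockout, and 162 and 151 CPM under EPZ-6438. In the untreated set it was 144 CPM in Cal27, 211 CPM in the library labelled knockout, 84.3 CPM in SKN3 and 0.462 CPM in BICR78. NSD1 mRNA was therefore higher, not lower, in every library labelled knockout (an edit within the transcript would not be seen in such counts). Directions are therefore given for the labels as they stand. All 8 squamous epithelial markers, such as KRT5 and TP63, were detected in every library.

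Of the 7 members, 5 passed the low-count filter and were tested. APOBEC3A, known as a strong mutator of DNA, was counted 8 times in all 10 libraries together and was at 0 in 5 of them, among them both Cal27 DMSO and both EPZ-6438 libraries. The 2 reads in the 6 DMSO and EPZ-6438 libraries correspond to 0.0245 CPM (95% exact Poisson interval 0.00296 to 0.0884, counting error only). For a count of 0 in the shallowest of them, the first EPZ-6438 library, the same kind of interval reaches 0.314 CPM. APOBEC3H, whose product restricts retroviruses, was counted 19 times in all, between 0 and 5 times per library. Its level over the 6 DMSO and EPZ-6438 libraries was 0.11 CPM (0.0504 to 0.209). Neither gene was detectable at a level that would allow a comparison. Relatives outside the cluster were sparse too: APOBEC1, the editor of apolipoprotein B mRNA, had 2 reads over all libraries, APOBEC2 had 1 and APOBEC4 had 0.

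**Figure D1:**
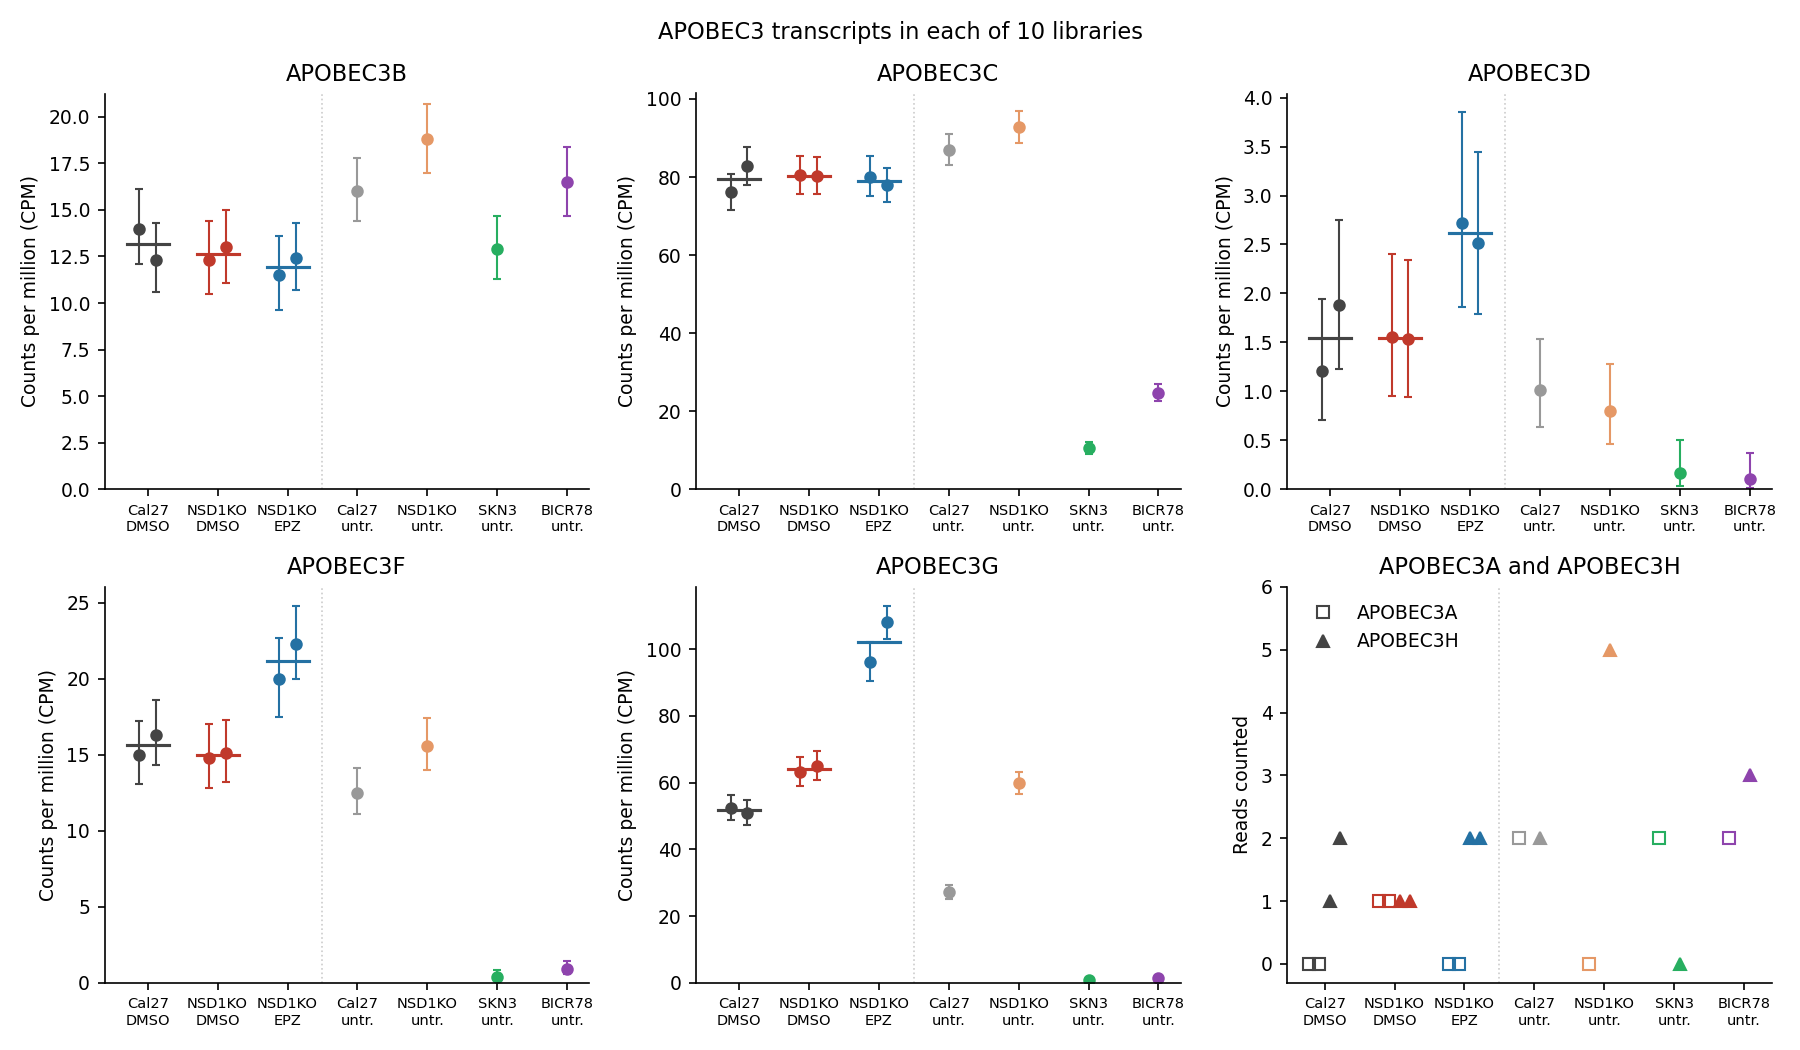
Level of each member in each of the 10 libraries: CPM on linear axes for APOBEC3B, APOBEC3C, APOBEC3D, APOBEC3F and APOBEC3G, and reads counted for APOBEC3A and APOBEC3H. Points are libraries with exact 95% Poisson intervals (counting error only; none drawn for read counts), horizontal bars are means of 2 libraries, and the dotted line divides the DMSO and EPZ-6438 set from the untreated (untr.) set; NSD1KO is the labelled knockout of Cal27. APOBEC3G is at 50.9 and 52.4 CPM in the first group and at 96.0 and 108 CPM in the third, while SKN3 and BICR78 sit near 0 for APOBEC3F and APOBEC3G but not for APOBEC3B.

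The first question was which members differed between the labelled knockout and Cal27, both with DMSO. APOBEC3G, a cytoplasmic enzyme that is packaged into retroviral particles and countered by the Vif protein of HIV, was the only member called. It was counted at 52.4 and 50.9 CPM in Cal27 and at 63.3 and 65.0 CPM in the labelled knockout. Both knockout libraries lay above both Cal27 libraries. The fitted log2 change was 0.26 ± 0.06 (SE), or 1.20-fold (edgeR quasi-likelihood test, Benjamini-Hochberg adjusted p = 0.0034). The call ended when the untreated pair was added with culture set as a term (log2 0.52 ± 0.16, adjusted p = 0.081) and in a test against a log2 fold of 0.5. Over all alternatives the adjusted p ran from 7e-05 to 1, the highest in that last test, which asks for more than a difference from 0.

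The other tested members did not pass in this comparison. APOBEC3B, the nuclear member most often linked to tumour mutation, stood at 14.0 and 12.3 CPM in Cal27 and at 12.3 and 13.0 CPM in the labelled knockout. The ranges overlapped, and the log2 difference of -0.11 had a 95% interval from -0.36 to 0.14 (edgeR, adjusted p = 0.52). APOBEC3C, which has a weaker antiviral action, had the smallest standard error, at 76.1 and 82.7 CPM against 80.4 and 80.3 CPM. Its log2 difference was -0.03, with an interval from -0.14 to 0.08. APOBEC3F, a Vif target like APOBEC3G, was at 15.0 and 16.3 CPM against 14.8 and 15.1 CPM, with overlapping ranges and an interval from -0.34 to 0.11 (log2). APOBEC3D, the faintest tested member, had 17 and 26 reads in Cal27 and 20 and 21 in the labelled knockout, and its interval from -0.79 to 0.69 (log2) includes 1.5-fold changes in either direction.

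Of 5 tested members 1 rose and 0 fell, and 35.9% of the 13241 genes tested were called, 16.4% higher and 19.5% lower. At an unadjusted p below 0.05 the counts were the same, 1 and 0, and DESeq2 also called 1 and 0. The share of members called is below the background. With library size alone as the scaling, 2978 of all genes rose and 2088 fell, against 2169 and 2580 with TMM scaling; the member calls stayed at 1 and 0, and the uncalled difference of APOBEC3C turned to 0.02 (log2).

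The second comparison set EPZ-6438 against its solvent within the labelled knockout line. APOBEC3G and APOBEC3F rose, APOBEC3D pointed the same way without passing, and APOBEC3B and APOBEC3C stayed near their level with DMSO. APOBEC3G went from 63.3 and 65.0 CPM to 96.0 and 108 CPM. The groups did not overlap, and the log2 change was 0.67 ± 0.06 (SE), or 1.59-fold (edgeR, adjusted p = 3.7e-08). APOBEC3F went from 14.8 and 15.1 CPM to 20.0 and 22.3 CPM, again without overlap, a log2 change of 0.50 ± 0.10 (adjusted p = 0.00066). Against a log2 fold of 0.5 only APOBEC3G was called. Because 1 gene of the cluster can take reads of another where their sequences are alike, and the handling of reads with several matches is not given in the sources used here, APOBEC3D, APOBEC3F and APOBEC3G are uncertain as separate rows. Summed with each other before the fit, APOBEC3F and APOBEC3G rose by 0.64 ± 0.05 (log2, SE), and APOBEC3D and APOBEC3F by 0.53 ± 0.10.

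APOBEC3D had 32 and 39 reads with EPZ-6438 against 20 and 21 with DMSO, or 2.72 and 2.51 CPM against 1.56 and 1.53 CPM. These libraries did not overlap either, but the log2 difference of 0.75 ± 0.32 (SE) did not pass (edgeR, adjusted p = 0.064; 0.05 to 0.54 over the alternatives). APOBEC3B was at 11.5 and 12.4 CPM with the inhibitor against 12.3 and 13.0 CPM, and its interval from -0.33 to 0.18 (log2) does not reach the change fitted for APOBEC3G. APOBEC3C was at 80.1 and 77.9 CPM against 80.4 and 80.3 CPM, with an interval from -0.14 to 0.08. The interval of APOBEC3G, from 0.55 to 0.79, lay above both; the difference between members was not tested.

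Of 5 tested members 2 rose and 0 fell with EPZ-6438, where 49.6% of all genes tested were called, 25.6% higher and 23.9% lower. At an unadjusted p below 0.05 the counts were 3 and 0, and DESeq2 called 2 and 0. The share of members called is close to that of all genes. Their median log2 change was 0.50 against 0.00 over all genes tested.

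**Figure D2:**
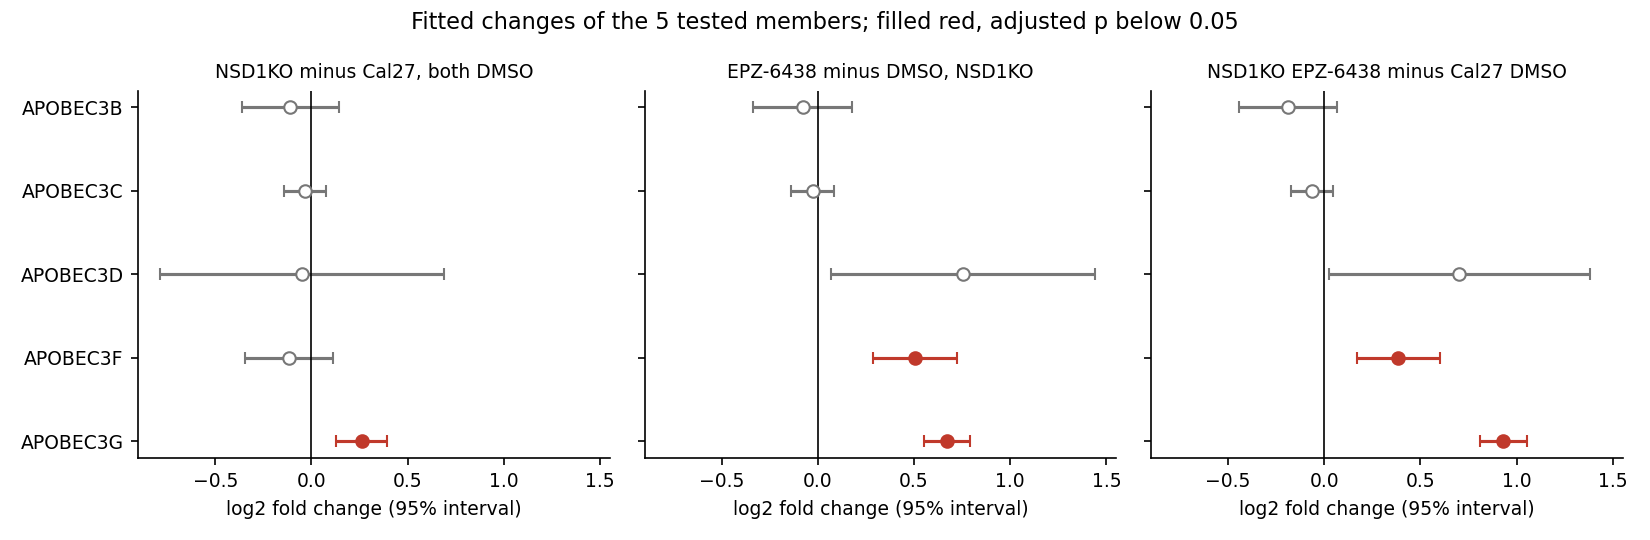
Fitted log2 fold change (horizontal axis) with its 95% interval for the 5 tested members in 3 comparisons of 2 against 2 libraries; filled red points have an adjusted p below 0.05 and open grey points do not. APOBEC3G lies to the right of 0 in all 3 panels, at 0.26, 0.67 and 0.93, and the intervals of APOBEC3B and APOBEC3C include 0 in all 3.

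APOBEC3G also stood higher in EPZ-6438-treated labelled knockout cells than in parental Cal27 with solvent. The values were 96.0 and 108 CPM against 52.4 and 50.9 CPM, a log2 difference of 0.93 ± 0.06 (SE; 1.91-fold; edgeR, adjusted p = 6.4e-10). This comparison shares its libraries with the 2 before it and is no separate evidence. APOBEC3F was higher by 0.39 ± 0.10 (adjusted p = 0.0043), at 20.0 and 22.3 CPM against 15.0 and 16.3 CPM. Its call was lost without Cal27 DMSO replicate 1 (0.32, adjusted p = 0.051) and without the second EPZ-6438 library (0.30, adjusted p = 0.064), and over all alternatives its adjusted p ran from 0.0017 to 1. APOBEC3D (0.70 ± 0.32), APOBEC3B (-0.19 ± 0.12) and APOBEC3C (-0.06 ± 0.05) did not pass. Here 2 of 5 members were called higher and 0 lower (unadjusted, 3 and 0; DESeq2, 2 and 0), against 52.0% of all genes, 26.1% higher and 25.9% lower; library size alone gave 4016 higher and 2815 lower against 3456 and 3428.

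The make-up of the cluster's reads shifted with these changes. Reads of APOBEC3G per read of APOBEC3B numbered 3.76 and 4.12 in Cal27 with DMSO, 5.15 and 5.02 in the solvent-treated labelled knockout, and 8.36 and 8.69 under EPZ-6438. The ratio of APOBEC3C to APOBEC3B showed no such order, at 5.45 and 6.70, 6.54 and 6.20, and 6.97 and 6.29. Such ratios within a library do not depend on its scaling, but they are not corrected for transcript length and do not rank the genes by level. Summed over all 7 members, reads came to 159 and 164 CPM, 172 and 175 CPM, and 211 and 223 CPM in the same order of groups.

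The untreated libraries, 1 per group, allow no test of the conditions. APOBEC3G was at 27.1 CPM in untreated Cal27 (589 reads) and at 59.8 CPM in the untreated labelled knockout (1267 reads), a ratio of 2.21 (exact 95% interval 2.0 to 2.44, counting error only). The labelled knockout was thus close to its level with DMSO, whereas untreated Cal27 was well below Cal27 with DMSO. The direction was that of the DMSO set and the ratio larger; whether the sets differ was not tested. Culture set, library depth and summed squamous markers moved together in Cal27, with the markers at 22600 CPM untreated against 7590 and 7670 CPM with DMSO, and their part in the APOBEC3G level was not tested. APOBEC3F was at 15.6 against 12.5 CPM (ratio 1.25, 1.06 to 1.47), APOBEC3B at 18.8 against 16.0 CPM (1.17, 1.01 to 1.36), APOBEC3C at 92.8 against 86.9 CPM (1.07, 1.0 to 1.14) and APOBEC3D at 17 against 22 reads (0.793, 0.395 to 1.56). TMM scaling lowers these ratios, by 0.10 on the log2 scale for the median gene, and puts APOBEC3C at -0.01 (log2). After it, 1 of 5 members with at least 10 reads, APOBEC3G, was 2-fold or more higher (6.68% of all genes) and 0 were 2-fold or more lower (10.4%).

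The largest contrasts within the family lay between cell lines. SKN3 and BICR78 held far fewer reads of APOBEC3C, APOBEC3D, APOBEC3F and APOBEC3G than Cal27, while APOBEC3B differed far less between the 3 lines. APOBEC3B stood at 16.0 CPM in Cal27 (348 reads), 12.9 CPM in SKN3 (227 reads) and 16.5 CPM in BICR78 (321 reads). Its ratio to Cal27 was 0.806 (0.679 to 0.956) in SKN3, below 1 beyond counting error, and 1.03 (0.881 to 1.20) in BICR78. After TMM scaling the log2 differences were -0.46 and 0.01. APOBEC3G had 14 reads in SKN3 and 25 in BICR78, or 0.796 and 1.28 CPM against 27.1 CPM. It was 34.0-fold lower in SKN3 (20.1 to 62.6) and 21.1-fold lower in BICR78 (14.2 to 32.9).

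APOBEC3F followed the same order, with 7 reads in SKN3 and 18 in BICR78 against 272 in Cal27. It was 31.4-fold lower in SKN3 (15.1 to 78.9) and 13.6-fold lower in BICR78 (8.41 to 23.2). APOBEC3C was present in all 3 lines, at 10.6 CPM in SKN3, 24.7 CPM in BICR78 and 86.9 CPM in Cal27, that is 8.22-fold (7.07 to 9.61) and 3.52-fold (3.18 to 3.89) lower. APOBEC3D had only 3 and 2 reads against 22, with ratios to Cal27 of 0.169 (0.0323 to 0.561) and 0.101 (0.0116 to 0.412).

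In each of these lines 4 of 5 members were 2-fold or more lower than Cal27 and 0 were 2-fold or more higher. APOBEC3D in both lines (3 and 2 reads) and APOBEC3F in SKN3 (7 reads) passed the minimum of 10 reads through Cal27 alone. They passed through the library in which they were higher, so their direction in this count is not independent of that minimum. Among all genes with at least 10 reads in either library, 19.8% were that much lower in SKN3 and 22.8% higher; in BICR78 the shares were 10.6% and 19.5%. Scaling moves the median gene by 0.16 (log2) in SKN3 and by 0.03 in BICR78, and the member counts were the same under both scalings. APOBEC3B made up 51.7% of all APOBEC3 reads in SKN3 and 37.6% in BICR78, against 11.1% in untreated Cal27, and APOBEC3G 3.19%, 2.93% and 18.8%. The intervals cover counting error only, and with 1 library per line the differences have no replicate check. In bulk RNA, fewer cells of a kind and less RNA per cell cannot be told apart.

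**Figure D3:**
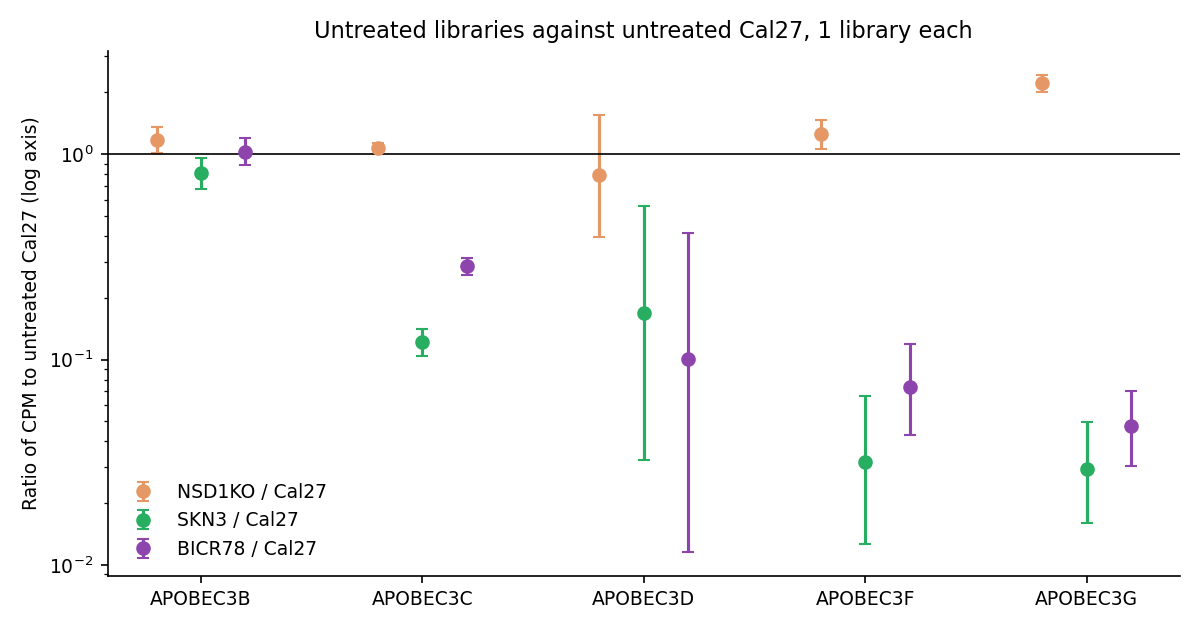
Ratio of CPM to untreated Cal27 (vertical log axis) for the 5 members with at least 10 reads in either library of each pair. Shown are the untreated labelled knockout (NSD1KO), SKN3 and BICR78, 1 library each, and bars are exact 95% intervals for counting error only. APOBEC3B lies at 1.17, 0.806 and 1.03 in these. APOBEC3F and APOBEC3G lie below 0.1 in SKN3 and BICR78, and APOBEC3G is at 2.21 in the labelled knockout.

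Over all 10 libraries, the order of APOBEC3G by group was EPZ-6438 above both DMSO and untreated labelled knockout, then Cal27 with DMSO, untreated Cal27, BICR78 and SKN3. The labelled knockout with DMSO (63.3 and 65.0 CPM) and untreated (59.8 CPM, 95% Poisson interval 56.5 to 63.2) were neighbours whose values lay close together. BICR78 (0.830 to 1.89 CPM) and SKN3 (0.435 to 1.34 CPM) overlapped within counting error. APOBEC3F had a mean of 21.2 ± 1.63 CPM (SD, n = 2) with EPZ-6438, above Cal27 with DMSO (15.7 ± 0.913), the untreated labelled knockout (15.6) and the labelled knockout with DMSO (15.0 ± 0.251), and then untreated Cal27 (12.5), BICR78 (0.923) and SKN3 (0.398). The libraries of the DMSO groups overlapped for APOBEC3F, and the untreated labelled knockout lay within the range of Cal27 with DMSO but above both libraries of the labelled knockout with DMSO.

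APOBEC3D was likewise highest with EPZ-6438 (2.62 ± 0.148 CPM) and equal at 1.54 CPM in both DMSO groups, with an SD of 0.471 in Cal27 and 0.0197 in the labelled knockout. It was lower untreated, at 1.01 CPM in Cal27 and 0.802 CPM in the labelled knockout, and lowest in SKN3 and BICR78. APOBEC3C showed another order, with the untreated labelled knockout (92.8 CPM) and untreated Cal27 (86.9 CPM) on top. The groups with DMSO or EPZ-6438 followed, at 80.3 ± 0.0714, 79.4 ± 4.62 and 79.0 ± 1.57 CPM, and did not differ beyond their spread. APOBEC3B ran from 11.5 to 18.8 CPM. Its order began with the untreated labelled knockout, BICR78 and untreated Cal27, followed by Cal27 with DMSO (13.2 ± 1.14 CPM), SKN3 (12.9), and the labelled knockout with DMSO (12.6 ± 0.467) and EPZ-6438 (11.9 ± 0.627). Among these last 4, the values of each group overlapped those of the next.

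Pearson's r of log2 CPM over the 10 libraries is given only as a description. For APOBEC3C, APOBEC3D, APOBEC3F and APOBEC3G the values rest largely on the split between SKN3 and BICR78 and the 8 libraries from Cal27. These 8 share a parent line. APOBEC3B was at 12.9 CPM in SKN3 and 16.5 CPM in BICR78, within the 11.5 to 18.8 CPM of the 8 Cal27 libraries. Untreated Cal27 and its labelled knockout had 16.0 and 18.8 CPM, against 11.5 to 14.0 CPM over the 6 DMSO and EPZ-6438 libraries. APOBEC3F and APOBEC3G correlated at 0.991 and APOBEC3C with APOBEC3F at 0.972, while APOBEC3B stood apart, from -0.422 with APOBEC3D to 0.116 with APOBEC3C. Among 10977 genes of at least 5 CPM on average, those most like APOBEC3G included FAM167A (0.997) and ATP6V1C1, a subunit of the vacuolar proton pump (0.995). For APOBEC3F they were TRAF6, an adaptor of innate immune receptors (0.996), SND1 (0.995) and TFG (0.995), for APOBEC3C MRPL49 (0.997), RAB1B (0.994) and FUBP3 (0.993), for APOBEC3D NECTIN3 (0.986), SPCS2 (0.984) and CCL20 (0.984), and for APOBEC3B PGP (0.949), TIMM29 (0.945) and SAC3D1 (0.940).

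The genes around the cluster moved in both directions. Of the 5 nearest protein-coding genes on each side, 7 of 10 rose and 2 fell with EPZ-6438 (median log2 change 0.29). Over all genes tested, 25.6% rose and 23.9% fell in that comparison. NPTXR, a neuronal pentraxin receptor, rose by 2.15 ± 0.34 (log2, SE; edgeR, adjusted p = 6e-05) and DNAL4, a dynein light chain, by 1.13 ± 0.18. The nearest genes on either side, CBX6 and CBX7, which encode Polycomb chromobox proteins, rose by 0.24 ± 0.05 and 0.42 ± 0.10, and the growth factor PDGFB fell by 0.51 on the log2 scale. In the knockout comparison 2 of 10 rose and 3 fell, against 16.4% and 19.5% of all genes tested. PDGFB rose by 0.70 ± 0.07 and DNAL4 fell by 1.2 on the log2 scale. SYNGR1, a synaptic vesicle gene, had 48 and 41 reads in Cal27 with DMSO and 0 in both knockout DMSO libraries, at least 28.3-fold lower against a floor of 3 counts over the group. It counts among the genes that rose with EPZ-6438, on 1 and 7 reads. The median over neighbours in the knockout comparison was 0.04 with or without that bound.

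**Figure D4:**
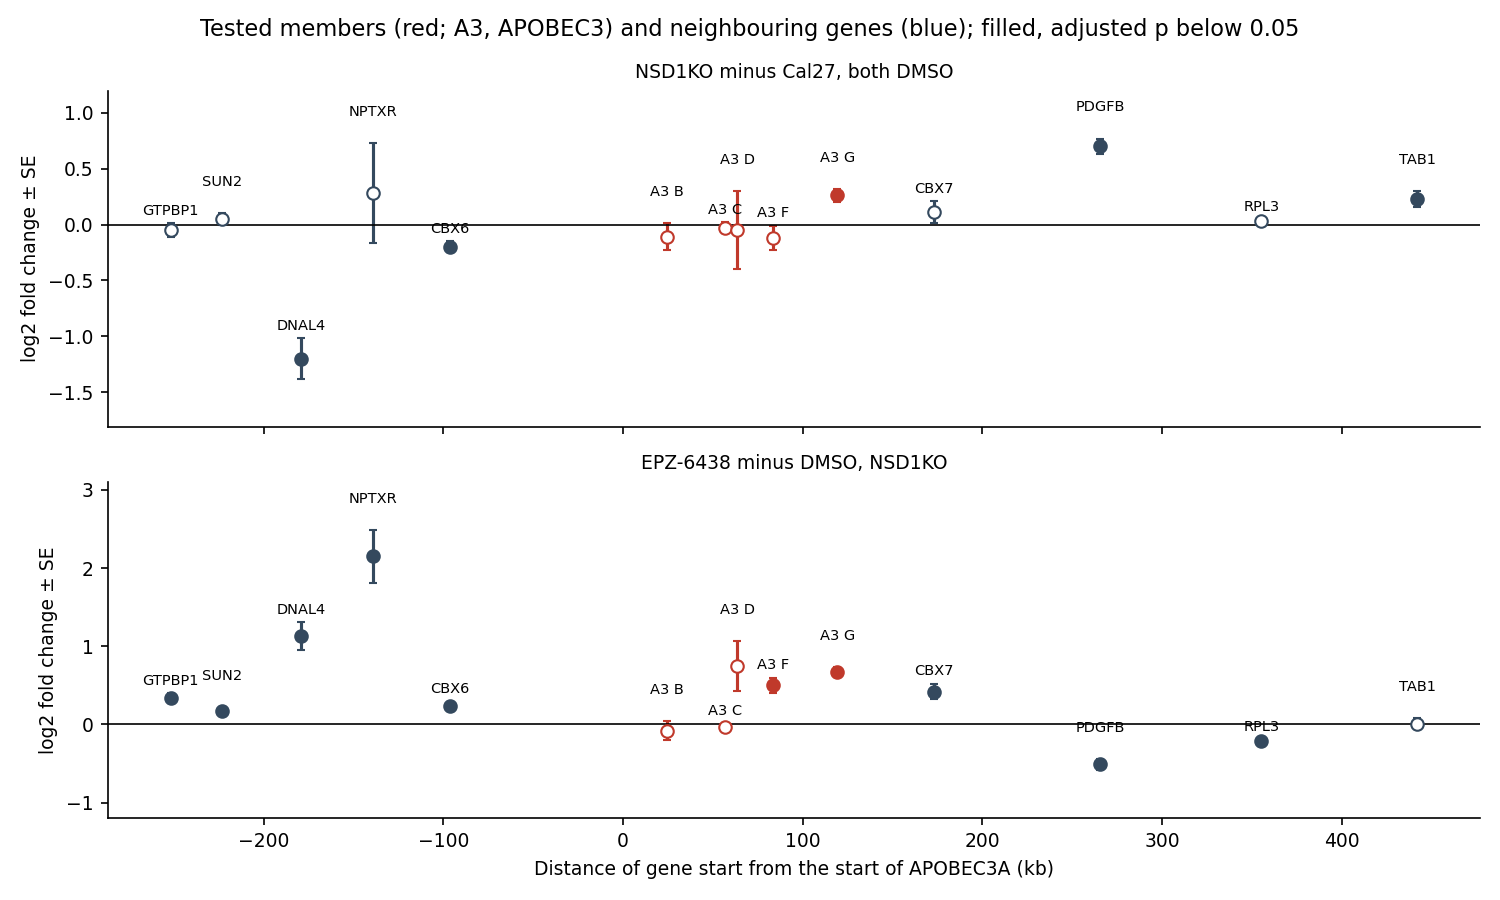
Log2 fold change ± SE (vertical axis) of tested members (red, A3 for APOBEC3) and neighbouring protein-coding genes (blue) against the distance of the gene's start from that of APOBEC3A in kb; filled points have an adjusted p below 0.05. SYNGR1, at 0 in 1 group, is not drawn; with EPZ-6438 (lower panel) APOBEC3F and APOBEC3G lie above 0 between APOBEC3B and APOBEC3C, near 0, and CBX7, at 0.42.

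Other restriction factors block viruses by other means. In the labelled knockout 11 of 16 fell and 2 rose (median log2 change -0.57), and APOBEC3G rose by 0.26 in the same libraries. The shares to set beside this and each later list of genes or markers are those of all genes tested. They were 16.4% higher and 19.5% lower in the labelled knockout, and 25.6% higher and 23.9% lower with EPZ-6438. MX1, an interferon-induced GTPase, fell by 1.5 and MX2 by 2.17 on the log2 scale, and IFITM1 and IFITM3, which block viral entry, fell by 1.37 and 0.89. With EPZ-6438, 14 of 16 rose and 1 fell (median 1.25): MX1 by 2.67 ± 0.03, MX2 by 3.99 ± 0.05, IFITM1 by 2.39 ± 0.03 and IFITM3 by 1.44 ± 0.03 (log2, SE). The fitted change of APOBEC3G, 0.67, was smaller than each of these 4, which were named for the lowest adjusted p in the list. It was above those of TREX1 (0.63), SERINC5 (0.57), SERINC3 (0.25), MOV10 (0.05) and ZC3HAV1 (-0.22), and below those of the rest of the list. Differences between these genes were not tested. Untreated, with 1 library per group, MX1 stood at 181 CPM in Cal27 and at 105 CPM in the labelled knockout. It was at 4.09 CPM in SKN3 and 9.69 CPM in BICR78. The relation of MX1 to the APOBEC3G level was not tested.

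Interferon receptors and their signalling genes fell in 6 of 13 cases in the labelled knockout and rose in 2 (median -0.15). With EPZ-6438, 9 rose and 1 fell (median 0.44). IRF9, a subunit of the transcription factor that type I interferons activate, fell by 1.26 in the labelled knockout and rose by 1.68 ± 0.06 with EPZ-6438 (log2). ADAR, an interferon-induced enzyme that deaminates adenosine in RNA, fell by 0.37 in the labelled knockout and rose by 0.66 ± 0.03 with EPZ-6438. Of the 3 RNA adenosine deaminases 1 rose and 1 fell in the first comparison and 2 rose in the second.

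APOBEC3B is known to be regulated through the cell cycle and by NF-kappaB. In the list of DREAM, B-MYB and E2F genes, which time cell cycle transcription, 5 of 19 rose and 1 fell in the labelled knockout (median 0.10). With EPZ-6438, 2 rose and 4 fell (median -0.01). Of all genes tested, 35.9% were called in the labelled knockout and 49.6% with EPZ-6438, in either direction. E2F2 fell by 0.89 and then rose by 1.23 ± 0.16, while TFDP1 fell with EPZ-6438 by 0.32. In the NF-kappaB pathway 6 of 13 rose and 2 fell in each comparison, with medians of 0.06 and 0.03. NFKB2 rose by 0.32 ± 0.04 in the labelled knockout, and with EPZ-6438 BIRC3 rose by 0.62 ± 0.06 while the kinase MAP3K14 fell by 0.73. Of 9 tested keratinocyte transcription factors 3 rose and 3 fell in the labelled knockout, KLF5 falling by 0.75 and TP63 by 0.37. With EPZ-6438, 3 rose and 2 fell, KLF5 rising by 0.55 ± 0.04.

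Genes that deal with uracil in DNA went both ways. In the labelled knockout 4 of 16 rose and 3 fell (median -0.01), where 35.9% of all genes tested were called (49.6% with EPZ-6438). With EPZ-6438, 3 rose and 7 fell (median -0.15), among them UNG, the main uracil glycosylase, by 0.41, TDG, a thymine and uracil glycosylase, by 0.26 and APEX1, the endonuclease that acts after them, by 0.16 on the log2 scale. The ubiquitin ligase that HIV Vif turns against APOBEC3 proteins, with its partners, had 1 of 7 genes rising and 1 falling in the labelled knockout and 1 rising and 2 falling with EPZ-6438 (medians -0.03 and -0.04). ELOB fell by 0.31 in the former and ELOC by 0.31 in the latter.

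**Figure D5:**
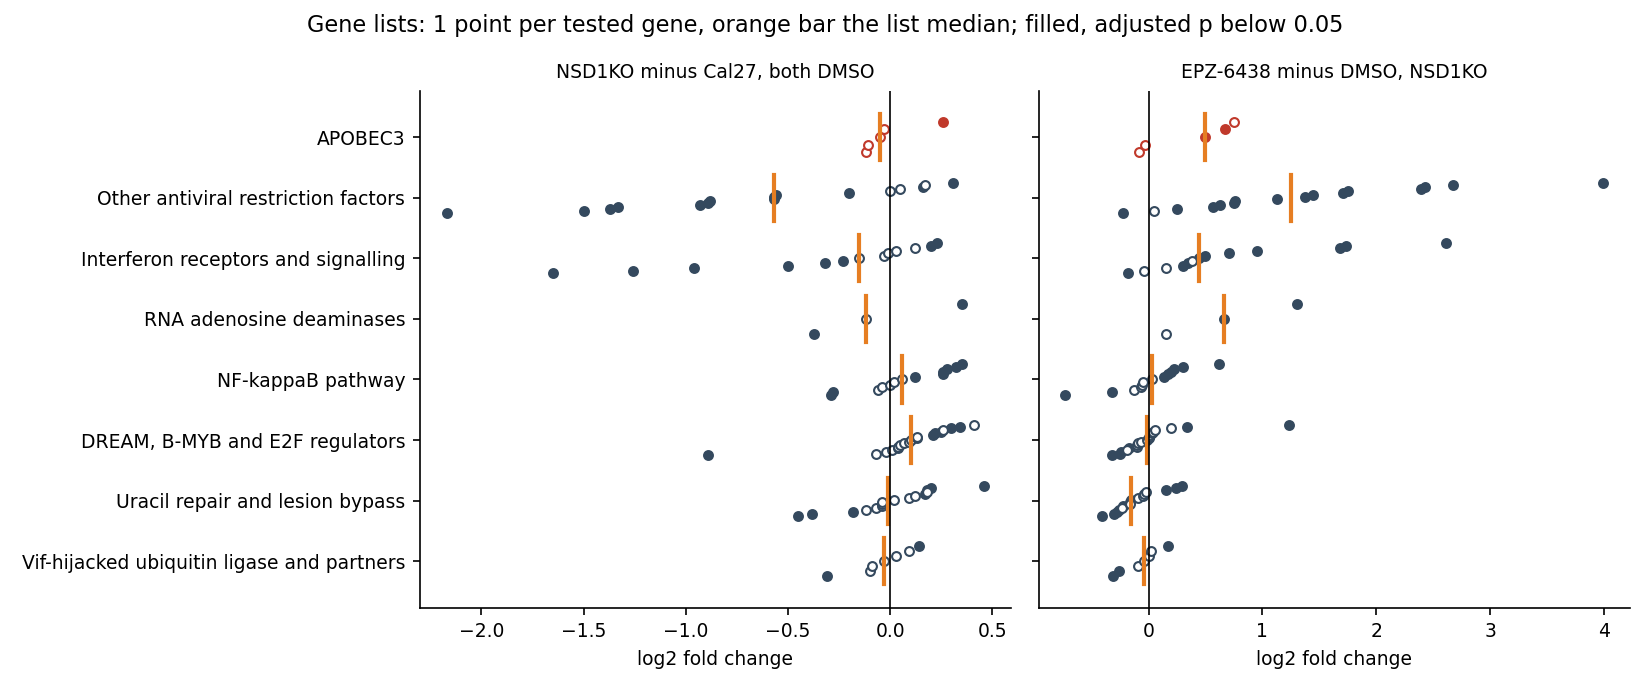
Log2 fold change (horizontal axis) of each tested gene in 8 lists, in the knockout comparison (left) and with EPZ-6438 (right); filled points have an adjusted p below 0.05 and orange bars are list medians. The restriction factors lie mostly left of 0 in the first panel (median -0.57) and right of it in the second (median 1.25), and the APOBEC3 medians are -0.05 and 0.50.

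APOBEC3G is abundant in leukocytes, so leukocyte markers were read in the same libraries. Their summed level was 79.4 and 79.9 CPM in Cal27 with DMSO, 177 and 181 CPM in the labelled knockout with DMSO and 231 and 236 CPM with EPZ-6438, and it was 13.4 CPM in SKN3 and 35.8 CPM in BICR78. Of the 10 markers 3 were tested. LAPTM5, a lysosomal protein (log2 1.62 ± 0.06), and CD68 (0.94 ± 0.06) rose in the labelled knockout, where CD14 did not pass (0.28 ± 0.13). With EPZ-6438, CD14 (1.78 ± 0.10) and LAPTM5 (0.57 ± 0.05) rose and CD68 did not pass (-0.05 ± 0.05). In the DMSO and EPZ-6438 libraries the sums came almost entirely from these 3 genes. In Cal27 with DMSO, LAPTM5, CD68 and CD14 averaged 22.3, 49.5 and 7.46 CPM, and PTPRC 0.321 CPM. Among the markers too sparse to be tested, PTPRC had at most 7 reads in any library and MS4A1 had none. CD3E, CD3D, NKG7 and TYROBP had 0 or 1 read in each of the 8 libraries from Cal27. SKN3 had 29 reads of CD3E and 13 of TYROBP, with APOBEC3G at its lowest. Fibroblast markers summed to between 7.50 and 25.3 CPM over the 6 DMSO and EPZ-6438 libraries, with 3 of 5 tested falling in the labelled knockout and 4 rising with EPZ-6438. Endothelial markers summed to between 16.6 and 29.0 CPM there, and to 5.34 CPM in untreated Cal27 against 89.9 CPM in the untreated labelled knockout. With DMSO, 1 of 3 tested endothelial markers rose and 2 fell in the labelled knockout, and 1 rose with EPZ-6438. Of the squamous markers 6 of 8 fell and 1 rose in the labelled knockout, and 7 fell and 1 rose with EPZ-6438. The part of these markers in the APOBEC3 values was not tested.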

How the data were processed

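Per the labels' protocols, total RNA was extracted in TRIzol and libraries followed ribosomal RNA depletion. The deposited values are raw read counts by gene symbol. Per the submitters' processing notes the build was hg38 and the tools were featureCounts 1.6.1, HISAT2 2.1.0, Picard 2.23.1 and CASAVA 1.7. For annotation, strand and multi-mapping handling, the sources used here give nothing, so overlapping and near-identical genes are uncertain. The 7 CUT&Tag samples, APOBEC3A_B and APOBEC3B-AS1 were not analysed here.

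Libraries were grouped by title. One fit in edgeR 4.0.16, under R 4.3.3, took the 6 DMSO and EPZ-6438 libraries: default low-count filter (13241 genes), TMM, quasi-likelihood test with group as the only term, called at an adjusted p below 0.05. "Rose" and "fell" mark called genes, and fold changes are log2. The procedure was tested on simulated data, in which unchanged genes made up a larger share of the calls than the threshold states. CPM is reads per 1000000 counts of the library, without TMM. Log2 CPM uses TMM over 10 libraries and a prior count of 2. DESeq2 1.42.0 was an alternative. Members and lists were chosen with earlier results of these data known. Named were all members, up to 4 genes per list by adjusted p, 5 neighbours per side, 3 most alike genes per tested member, NSD1, and markers at or near 0. Some genes that this rule would name are not reported here.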

Additional observations from a re-analysis of the deposited data

How the results depend on the processing

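Against a log2 fold of 0.5, the knockout comparison held 0 members, with 248 genes higher and 618 lower; the EPZ-6438 comparison held 1 member, with 1272 and 204; and treated knockout against Cal27 held 1 member, with 1053 and 424. Adding the untreated pair left 0 members in the knockout comparison, with 885 genes higher and 1054 lower; the cause was not tested. Summing APOBEC3F and APOBEC3G, an alternative chosen after seeing the data, gave 1 member with EPZ-6438 and 1 against Cal27, since 2 members became 1 row. Leaving out each library gave 1 to 2 members higher for treated knockout against Cal27, 1 for the knockout comparison and 2 for EPZ-6438. No member was called lower in any alternative. With a replicate block APOBEC3G changed by 0.26 and 0.67 (log2) and no member call changed. Deviations of same-numbered libraries correlated between -0.029 and 0.027, so they showed no shared shift. Whether same-numbered libraries were prepared together cannot be told from this. DESeq2, other scalings and other filters kept the number of members called in each comparison. Depth limits APOBEC3A, APOBEC3D and APOBEC3H most, at no more than 39 reads in any library.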
